A study of Homo sapiens with 18 samples.

Results

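The comparison described here is the interaction between the hnRNP K siRNA label and doxorubicin (DOX), that is, the DOX change in arrays labelled si-hnRNP K minus the DOX change in scramble arrays. It uses 12 of the 18 arrays of the study, 3 in each of 4 groups. By label these are cells transfected with si-hnRNP K and given 400 nM DOX for 16 hours, si-hnRNP K without drug, si-scramble with the same DOX treatment, and si-scramble without drug. The labels call the cells HepG2, an established human hepatocellular carcinoma line. The other 6 arrays, labelled si-PSTAR with and without DOX, served as an outside comparison and helped to estimate the spread. Every gene on the array took part, with 1 probe for each of 19782 genes, and the 12483 genes whose mean reached the median of all probes (5.72 log2 intensity units) were tested. Whether the 3 replicates came from separate cultures is unstated, and p-values therefore cover the variation among arrays alone, possibly a technical one.

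Doxorubicin is an anthracycline that intercalates into DNA and traps topoisomerase II on broken DNA. The break signal stabilises p53, which turns on genes of cell cycle arrest, repair and death, and prolonged damage also turns on inflammatory genes through NF-kB. hnRNP K is a nuclear protein that binds poly(C) tracts in RNA and DNA and is known as a cofactor of p53 in the response to DNA damage. An interaction above 0 means that DOX moved a gene up more, or down less, in the arrays labelled si-hnRNP K than in scramble arrays, and an interaction below 0 means the opposite.

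Some facts about the arrays bear on every value below. The targeted gene was not lowest under its own label. HNRNPK, read on the probe with the highest mean, measured 11.36 ± 0.22 log2 units in si-hnRNP K arrays with DOX and 11.55 ± 0.12 without, against 11.95 ± 0.07 in scramble arrays with DOX and 11.72 ± 0.09 without (SD, n = 3 each). With DOX the si-hnRNP K arrays lay below the scramble arrays on this probe, and without DOX the groups overlapped. The second probe averaged 10.79 and 11.70 in si-hnRNP K arrays with and without DOX, against 10.77 and 11.94 in scramble arrays. On the first probe the arrays labelled si-PSTAR had 8.32 with DOX and 8.44 without, the lowest levels of the 6 groups. Whether the si-hnRNP K and si-PSTAR labels were exchanged was not tested, and all values below go by the labels as given. A loss of HNRNPK like that in si-PSTAR arrays was not shown in the arrays labelled si-hnRNP K. The untreated si-hnRNP K and untreated scramble arrays stood apart as 6 arrays that correlated across genes at 0.978 or more with each other and at 0.963 or less with the other 12. For the 4 groups compared, DOX and this division of the arrays therefore cannot be told apart. The interaction is equally the difference between both siRNA labels with DOX minus that difference without DOX, and each of those differences lies within one of the 2 sets. A difference between the sets that is the same under both labels therefore cancels. One that differs between the labels does not cancel, and it cannot be told apart from an interaction with DOX. Of 10 hepatocyte markers 8 were on the array, and ALB, which encodes albumin, was the one that reached 1 log2 unit above the median of all probes in any group. ALB stood at 8.69 and 8.60 in si-hnRNP K arrays with and without DOX, against 6.84 and 6.47 in scramble arrays, while AFP, APOA1, APOH, TTR, SERPINA1, FGB and AHSG stayed below that level. Of the markers of other cells, 4 of 8 fibroblast genes, 1 of 7 leukocyte genes and 1 of 8 endothelial genes reached it, and 0 of the 15 markers that passed the filter, of 31 on the array, had a called interaction. Over all genes tested 3.17% had one. The summed log2 level of the fibroblast list was 51.6 and 50.6 in si-hnRNP K arrays with and without DOX, against 55.3 and 54.9 in scramble arrays, and its part in the results was not tested.

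The genes with the lowest interactions included IFI27, an interferon-induced gene, and the cytokine genes IL6 and CXCL8. Those with the highest included CDK1, the kinase that drives entry into mitosis, and KPNA2, a nuclear import receptor. Their promoters, the 250 bases before the transcript start, are shown because each gene has a called interaction, and IFI27, IL6, CXCL8 and CDK1 are members of the interferon, NF-kB and mitotic lists described below. KPNA2 belongs to none of the gene lists and is shown as one of the 15 highest interactions. They come from RefSeq on GRCh38.p14 and are all on the plus strand, at chr14:94110486-94110735 (IFI27), chr7:22726950-22727199 (IL6), chr4:73740319-73740568 (CXCL8), chr10:60778081-60778330 (CDK1) and chr17:68035485-68035734 (KPNA2). Capitals mark matches on either strand to the interferon response element (GAAA and GAAA with any 2 bases between them) in IFI27, the NF-kB site GGNNTTTCC in IL6 and CXCL8, and the cell cycle element TTTGAA and the CCAAT box in CDK1 and KPNA2.
IFI27: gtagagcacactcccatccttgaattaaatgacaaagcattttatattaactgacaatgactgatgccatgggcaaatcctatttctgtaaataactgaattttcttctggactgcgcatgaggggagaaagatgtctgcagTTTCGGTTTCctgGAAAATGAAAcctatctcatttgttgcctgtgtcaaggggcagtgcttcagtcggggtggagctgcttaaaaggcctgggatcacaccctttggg
IL6: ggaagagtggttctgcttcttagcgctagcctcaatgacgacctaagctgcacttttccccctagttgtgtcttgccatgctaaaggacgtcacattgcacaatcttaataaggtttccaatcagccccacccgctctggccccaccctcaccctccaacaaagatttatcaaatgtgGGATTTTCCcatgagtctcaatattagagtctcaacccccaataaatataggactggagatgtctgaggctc
CXCL8: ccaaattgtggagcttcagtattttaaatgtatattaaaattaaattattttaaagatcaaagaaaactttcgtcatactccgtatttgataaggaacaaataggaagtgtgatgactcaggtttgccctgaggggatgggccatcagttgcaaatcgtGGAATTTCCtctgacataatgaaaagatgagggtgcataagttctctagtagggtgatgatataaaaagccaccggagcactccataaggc
CDK1: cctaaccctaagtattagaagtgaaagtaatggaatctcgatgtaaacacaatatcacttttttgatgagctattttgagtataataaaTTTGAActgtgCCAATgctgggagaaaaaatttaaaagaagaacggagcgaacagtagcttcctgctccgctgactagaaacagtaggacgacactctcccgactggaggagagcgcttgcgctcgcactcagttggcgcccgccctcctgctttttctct
KPNA2: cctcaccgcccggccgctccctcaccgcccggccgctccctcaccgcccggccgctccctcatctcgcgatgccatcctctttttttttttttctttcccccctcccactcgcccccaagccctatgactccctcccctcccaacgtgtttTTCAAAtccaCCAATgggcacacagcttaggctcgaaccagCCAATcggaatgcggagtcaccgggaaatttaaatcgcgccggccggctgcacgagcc
The capitals in CXCL8 lie 91 to 83 bases before the start and those in IL6 lie 72 to 64 bases before it. The interferon element was in 6.73% of the 104 promoters of genes with a lower interaction, 1.95% of the 205 with a higher one and 3.07% of all 27305 promoters in the table. GGNNTTTCC was in 9.62%, 5.37% and 5.48%, TTTGAA in 6.73%, 13.7% and 13.6%, and CCAAT in 34.6%, 40.5% and 33.0%. Among the 9893 promoters of tested genes the shares of these 4 motifs were 2.41%, 6.01%, 9.09% and 35.7%. A match is a description of these letters and not evidence of a bound site.

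Most of the genes with a higher interaction had a DOX change that passed the test in the same direction under both labels, and for genes with a lower interaction this depended on the scaling. In a linear model with group means (limma, Benjamini-Hochberg adjusted p under 0.05), 256 genes had a higher interaction and 140 a lower one, 2.05% and 1.12% of the genes tested and 3.17% together. Of these, 10 higher and 8 lower ones reached 1 log2 unit. By comparison, 7335 genes differed between si-hnRNP K arrays with and without DOX (58.8% of those tested, 45.5% up and 13.2% down). Between scramble arrays with and without DOX 8135 did (65.2%, with 50.3% up and 14.9% down). These counts also cover the division of the arrays described above, which cannot be told apart from DOX here. Of the 256 higher genes, 211 fell with DOX under both labels, 20 fell in scramble arrays without being called in si-hnRNP K arrays, and 18 were called as rises in si-hnRNP K arrays alone. Of the 140 lower genes, 71 rose with DOX under both labels, 51 rose in scramble arrays without a call in si-hnRNP K arrays, and 8 fell with a call in si-hnRNP K arrays alone. With cyclic loess, 277 of 335 higher genes fell under both labels, while of 96 lower genes 20 rose under both and 53 rose in scramble arrays without a call in si-hnRNP K arrays. The lower genes with calls in the same direction under both labels thus numbered 77 of 140 as deposited and 27 of 96 with cyclic loess. These groupings follow from where each DOX test passed on 1 probe per gene, and the interaction is the test of the difference itself.

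**Figure D1:**
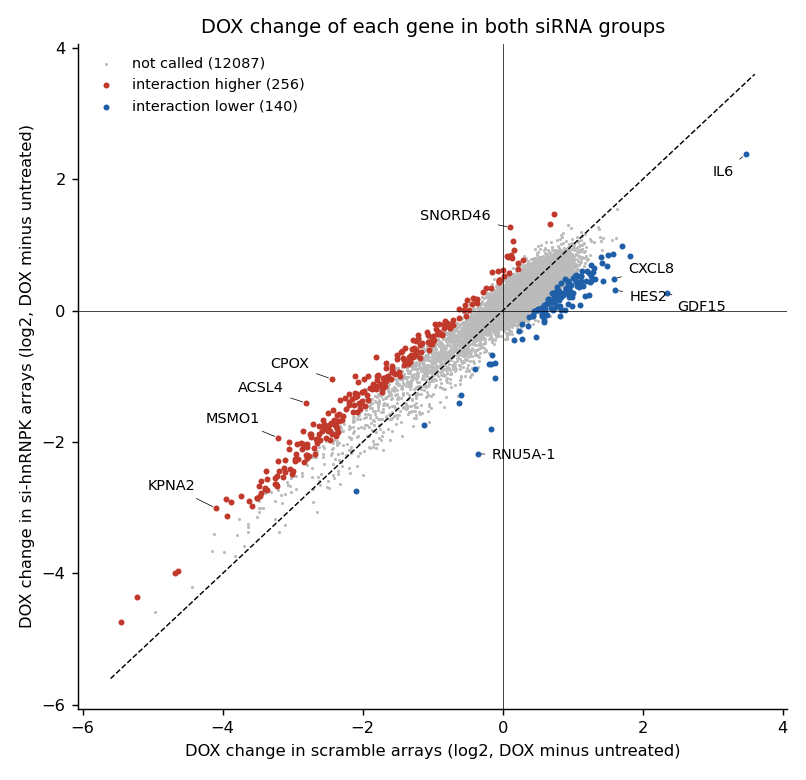
DOX change of each tested gene (log2, DOX minus untreated) in si-hnRNP K arrays on the vertical axis and in scramble arrays on the horizontal axis, with the dashed line where both are equal. The 256 genes with a higher interaction (red) lie above the line, most of them among genes that fell, and the 140 with a lower interaction (blue) lie below it.

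The DOX change had an SD over genes of 0.550 log2 units in si-hnRNP K arrays and 0.658 in scramble arrays. Across the 12483 genes both changes correlated at 0.941, a description, since both set arrays of the same 2 sets against each other. For the genes with a higher interaction, the median DOX change was -1.17 in si-hnRNP K arrays and -1.93 in scramble arrays. For those with a lower interaction it was 0.23 and 0.83, against 0.21 and 0.24 over all genes tested. The median of the DOX changes depended on normalization, and their spread hardly did. Cyclic loess moved the median of all genes by -0.16 in si-hnRNP K arrays and by -0.19 in scramble arrays, and moved the interaction by 0.04. With it the split of interaction calls was 335 higher and 96 lower, or 77.7% higher in place of 64.6%. The higher share of DOX calls came to 49.8% in place of 77.5% in si-hnRNP K arrays and to 51.1% in place of 77.2% in scramble arrays. The SDs were 0.549 and 0.659 under that scaling.

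GDF15, a secreted stress cytokine and p53 target, had the lowest interaction of all genes. It measured 10.29, 10.36 and 10.61 log2 units in si-hnRNP K arrays with DOX and 10.06, 10.23 and 10.16 without, against 12.33, 12.001 and 12.33 in scramble arrays with DOX and 10.05, 9.76 and 9.83 without. The 3 scramble arrays with DOX stood above the other 9. The interaction was -2.07 ± 0.15 (SE, limma adjusted p = 4.92e-09), from a DOX change of 0.27 in si-hnRNP K arrays and 2.34 in scramble arrays. The change in si-hnRNP K arrays was 0.02 with cyclic loess and lost its call, while the interaction was -2.04. Between the labels, GDF15 differed by -1.80 with DOX and by 0.27 without.

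HES2, a repressor of the Hairy and Enhancer of split family, showed a like pattern at a lower level. It measured 5.99, 5.90 and 6.004 in si-hnRNP K arrays with DOX and 5.74, 5.62 and 5.59 without, against 7.91, 8.05 and 7.89 in scramble arrays with DOX and 6.35, 6.31 and 6.37 without. None of the groups overlapped, and those of si-hnRNP K and of untreated scramble were near the median of all probes, defined here as under 1 log2 unit above it. The interaction was -1.29 ± 0.13 (adjusted p = 1.56e-06), and the second HES2 probe gave -0.80 (limma adjusted p over all probes = 0.00164). The HES2 DOX change of 0.31 in si-hnRNP K arrays lost its call with cyclic loess (0.17).

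Of 27 tested p53 targets, 6 had a lower and 1 a higher interaction, with a list median of -0.32 against -0.02 over all genes. Over all genes tested 1.12% had a lower and 2.05% a higher one. This list and those below were chosen with earlier results of these data known. The lower count of p53 targets was 3 without untreated si-hnRNP K array 1 and 4 to 7 in the other fits that left out 1 array. GADD45A, a growth arrest and repair gene, averaged 8.46 and 8.19 in si-hnRNP K arrays with and without DOX, against 9.06 and 8.06 in scramble arrays (interaction -0.73, limma adjusted p = 0.0127). Its second probe gave -0.32 with no call, and its call was lost without the untreated scramble array 1 or the untreated si-hnRNP K array 1. The GADD45A DOX change of 0.27 in si-hnRNP K arrays lost its call with cyclic loess (0.02). SESN2, a sestrin that restrains mTORC1, averaged 6.74 and 6.09 against 7.55 and 6.24 (-0.67, adjusted p = 0.00179), with group means near the median. CCNG1, which encodes cyclin G1, was the member with a higher interaction. It measured 8.24, 8.37 and 8.19 in si-hnRNP K arrays with DOX and 8.79, 9.12 and 9.01 without, against 8.60, 8.76 and 8.84 in scramble arrays with DOX and 10.60, 10.51 and 10.51 without. The untreated scramble arrays were highest, and the untreated si-hnRNP K arrays overlapped the scramble arrays with DOX. CCNG1 fell with DOX under both labels, with changes of -0.70 and -1.81 (interaction 1.10 ± 0.15, adjusted p = 7.67e-05), and its dim second probe gave 0.12 with no call.

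CDKN1A, the gene of the kinase inhibitor p21 and a p53 target, rose with DOX under both labels. Its brightest probe measured 12.12, 12.11 and 12.29 in si-hnRNP K arrays with DOX and 10.62, 10.64 and 10.60 without, against 14.24, 14.29 and 14.39 in scramble arrays with DOX and 12.73, 12.50 and 12.78 without. No group overlapped another, and si-hnRNP K arrays were lower in both conditions. The DOX changes were 1.55 and 1.64 and the interaction was -0.08 ± 0.14 (limma adjusted p = 0.847), while the second probe, with a mean of 6.86, gave -0.78 (adjusted p over all probes = 0.000827). MDM2, the p53 ubiquitin ligase, averaged 5.86 and 5.93 in si-hnRNP K arrays with and without DOX, against 6.46 and 6.08 in scramble arrays, all near the median (interaction -0.45, adjusted p = 0.0572), and its second probe gave 0.11. MYC, a growth transcription factor, averaged 12.31 and 12.43 against 11.74 and 11.80 on its brightest probe (-0.05, adjusted p = 0.914). Its second probe gave 0.96, with means of 7.50 and 11.14 against 6.03 and 10.62, so the 2 MYC probes disagree. HNRNPK itself had an interaction of -0.41 (adjusted p = 0.135), and its other 3 probes gave 0.26, 0.05 and 0.03.

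IL6, an inflammatory cytokine, rose with DOX under both labels. It measured 9.90, 9.69 and 9.77 in si-hnRNP K arrays with DOX and 7.42, 7.38 and 7.43 without, against 9.45, 9.60 and 9.63 in scramble arrays with DOX and 6.25, 5.93 and 6.10 without. The si-hnRNP K arrays were higher than scramble in both conditions, by 0.23 with DOX and by 1.32 without, and the untreated scramble arrays were near the median. The DOX changes were 2.38 and 3.47 (interaction -1.09 ± 0.14, limma adjusted p = 5.19e-05).

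CXCL8, which encodes the neutrophil chemokine interleukin 8, measured 9.02, 9.18 and 9.54 in si-hnRNP K arrays with DOX and 8.56, 8.85 and 8.87 without, against 8.28, 8.35 and 8.57 in scramble arrays with DOX and 6.97, 6.82 and 6.64 without. The untreated si-hnRNP K arrays overlapped the scramble arrays with DOX. The label difference was 0.85 with DOX and 1.95 without, and the interaction was -1.10 ± 0.23 (adjusted p = 0.00681). The second CXCL8 probe gave -0.21 with no call, and the DOX change of 0.49 in si-hnRNP K arrays lost its call with cyclic loess (0.23). In all, 4 of 19 tested NF-kB targets and chemokines had a lower interaction and 0 a higher one, with a median of -0.23. Shares over all genes tested were 1.12% lower and 2.05% higher. NFKB2, an NF-kB subunit gene, averaged 8.44 and 7.86 in si-hnRNP K arrays with and without DOX, against 8.61 and 7.38 in scramble arrays (-0.66, adjusted p = 0.0113), and its second probe gave -0.54 (adjusted p over all probes = 0.02). CXCL10, an interferon-induced chemokine, averaged 5.95 and 5.79 against 6.58 and 5.84, all near the median (-0.58, adjusted p = 0.0244, lost in 6 of 12 fits that each left out 1 array).

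Of 26 tested interferon-stimulated genes, 4 had a lower and 0 a higher interaction (1.12% and 2.05% over all genes tested), with a median of -0.18. The count was 2 without scramble array 1 of either condition. OASL, an antiviral sensor of the oligoadenylate synthetase family, measured 6.05, 6.12 and 6.0001 in si-hnRNP K arrays with DOX and 5.80, 5.79 and 5.88 without, against 8.10, 8.40 and 8.01 in scramble arrays with DOX and 6.82, 6.87 and 7.11 without. Its si-hnRNP K arrays were near the median in both conditions. The interaction was -1.004 ± 0.14 (limma adjusted p = 0.000137), from DOX changes of 0.23, which lost its call with cyclic loess, and 1.24. The second OASL probe gave -0.63 with no call (adjusted p over all probes = 0.0566). IFI27 measured 5.40, 5.71 and 5.46 in si-hnRNP K arrays with DOX and 5.46, 5.40 and 5.44 without, against 7.07, 6.83 and 7.18 in scramble arrays with DOX and 6.07, 5.74 and 5.95 without. All si-hnRNP K values of IFI27 lay below the median of all probes, and its untreated scramble arrays were near that median. The IFI27 interaction was -1.02 (adjusted p = 0.000378). ISG15, a ubiquitin-like modifier, was well above the median, at 8.33 and 7.64 in si-hnRNP K arrays with and without DOX against 10.61 and 9.34 in scramble arrays (-0.57, adjusted p = 0.0337). That call was lost in 9 of 12 fits that each left out 1 array. IFIT3, an antiviral adaptor, averaged 7.10 and 6.25 (the second near the median) against 8.87 and 7.37 (-0.64, adjusted p = 0.014), lost its call without scramble array 1 of either condition, and had a second probe at -0.32 with no call.

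Several stress transcription factors had lower interactions. DDIT3, the factor CHOP of the integrated stress response, measured 8.49, 8.42 and 8.70 in si-hnRNP K arrays with DOX and 7.78, 7.58 and 7.78 without, against 8.68, 8.57 and 8.79 in scramble arrays with DOX and 6.997, 6.77 and 6.84 without. The DOX groups overlapped and the untreated groups did not. DDIT3 rose under both labels, with DOX changes of 0.83 and 1.81 (interaction -0.99 ± 0.14, limma adjusted p = 0.00014). ATF3, a stress-induced repressor, averaged 9.37 and 8.91 in si-hnRNP K arrays with and without DOX, against 9.82 and 8.39 in scramble arrays (-0.97, adjusted p = 0.000808), and its dim second probe gave -0.36 with no call. The ATF3 DOX change of 0.46 in si-hnRNP K arrays lost its call with cyclic loess (0.21). KLF6, a zinc finger factor, averaged 10.25 and 10.33 in si-hnRNP K arrays with and without DOX, against 10.76 and 9.94 in scramble arrays (-0.89, adjusted p = 0.000592). With cyclic loess its DOX change in si-hnRNP K arrays was a called -0.32 in place of an uncalled -0.08. JUN, a subunit of AP-1, averaged 10.05 and 9.20 against 9.21 and 7.63 (-0.72, adjusted p = 0.0154), and lost its call without untreated scramble array 1 or DOX si-hnRNP K array 3. Of 29 tested immediate early genes, 4 were lower and 0 higher (median -0.17), against 1.12% and 2.05% over all genes tested. Of 19 YAP and SRF targets 2, THBS1 and CCN1, were lower and 0 higher (median -0.20). Both calls were lost without untreated si-hnRNP K array 1, and that of CCN1 also with cyclic loess and in 10 of 12 fits that left out 1 array.

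Of 25 genes of the amino acid stress response 2 were lower and 1 higher, against 1.12% and 2.05% over all genes tested. The higher one was ATF4, the factor that drives this response, and its probes disagreed. The brightest ATF4 probe measured 11.84, 11.95 and 11.89 in si-hnRNP K arrays with DOX and 13.34, 13.34 and 13.31 without, against 10.40, 10.17 and 10.61 in scramble arrays with DOX and 12.56, 12.55 and 12.64 without. No group overlapped another and si-hnRNP K arrays were higher in both conditions. The DOX changes on this probe were -1.44 and -2.19 (interaction 0.75, limma adjusted p = 0.00251), and the other 2 probes gave -0.05 and -0.08 with no call.

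**Figure D2:**
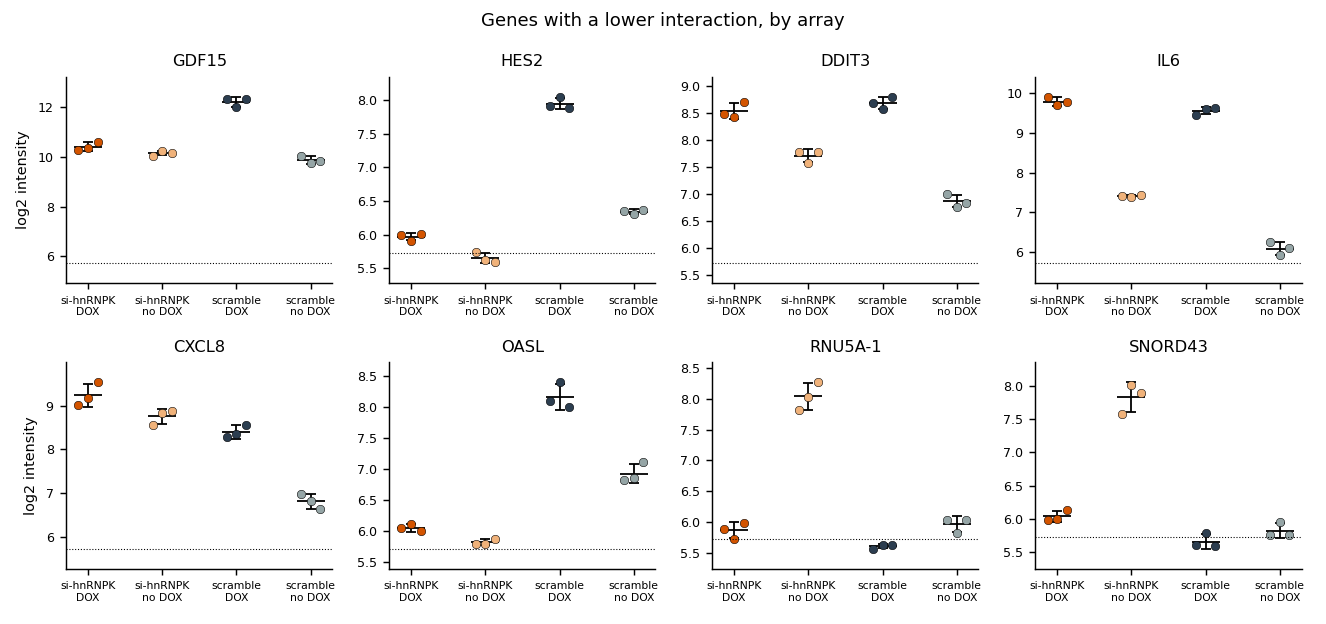
Log2 intensity of 8 genes with a lower interaction in each array (points), with the group mean and SD (bars, n = 3). The dotted line is the median of all probes, 5.72. GDF15, HES2 and OASL are highest in scramble arrays with DOX, and RNU5A-1 and SNORD43 are highest in untreated si-hnRNP K arrays.

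Several small nuclear and nucleolar RNAs had a different pattern, with a high level in a single group. RNU5A-1, a U5 RNA of the spliceosome, measured 5.88, 5.73 and 5.99 in si-hnRNP K arrays with DOX and 7.83, 8.03 and 8.27 without, against 5.56, 5.63 and 5.62 in scramble arrays with DOX and 6.04, 5.81 and 6.04 without. Only the untreated si-hnRNP K arrays stood well above the median, and the label difference was 0.26 with DOX and 2.08 without. The interaction was -1.82 ± 0.14 (limma adjusted p = 1.21e-08). SNORD43, a box C/D nucleolar RNA, measured 5.98, 5.99 and 6.14 in si-hnRNP K arrays with DOX and 7.58, 8.02 and 7.89 without, against 5.61, 5.78 and 5.58 in scramble arrays with DOX and 5.76, 5.95 and 5.75 without. Its interaction was -1.63 ± 0.14 (adjusted p = 9.15e-08), again with 3 of 4 groups near the median. RNU2-1, a U2 RNA, averaged 5.80 and 6.83 in si-hnRNP K arrays with and without DOX, against 5.74 and 5.84 in scramble arrays (-0.92, adjusted p = 0.00509), near the median in all but the untreated si-hnRNP K arrays. Its mean over the 18 arrays was 5.90 against the filter limit of 5.72, and the high group helped it pass. For a gene this dim the filter itself favours a high level in some group. U RNA genes have near-identical copies, so a probe cannot be assigned to a single copy.

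SNORD46, another box C/D RNA, went the other way and was highest in si-hnRNP K arrays with DOX. It measured 8.89, 8.59 and 8.89 in si-hnRNP K arrays with DOX and 7.27, 7.73 and 7.57 without, against 6.23, 6.04 and 6.09 in scramble arrays with DOX and 5.99, 5.93 and 6.12 without. The scramble groups overlapped near the median. The interaction was 1.16 ± 0.19 (adjusted p = 0.00109). RN7SK, the RNA that holds the elongation factor P-TEFb inactive, averaged 12.36 and 11.68 in si-hnRNP K arrays with and without DOX, against 10.60 and 9.11 in scramble arrays (-0.81, adjusted p = 0.000407). Its second probe gave -1.01 (adjusted p over all probes = 0.00012), but the DOX changes on it were -2.47 and -1.46 where the brightest probe gave 0.68 and 1.49. The list of small RNAs, chosen with earlier results of these data known, holds neither SNORD43 nor SNORD46. Of its 21 tested members 5 were lower and 1 higher (1.12% and 2.05% over all genes tested), with a median of -0.16. The lower count ranged between 3 and 6 when 1 array was left out, with 3 in 7 of the 12 fits. SNORA12, a nucleolar RNA of the box H/ACA class, was the higher one, at 9.45 and 7.98 against 6.59 and 5.85 (0.73, adjusted p = 0.00802), with scramble arrays near the median.

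The remaining genes among the 15 lowest interactions were CORO6, a coronin, BMF, a BH3-only death gene, and PLXNB1, a semaphorin receptor. CORO6 averaged 6.12 and 5.90 in si-hnRNP K arrays with and without DOX, against 7.41 and 6.23 in scramble arrays (-0.96, limma adjusted p = 0.0019). BMF averaged 5.68 and 5.61 against 7.55 and 6.56 (-0.92, adjusted p = 0.00014), and its second probe gave -0.75 (adjusted p over all probes = 0.00109). PLXNB1 averaged 6.16 and 6.15 against 7.33 and 6.45 (-0.87, adjusted p = 0.000194). In all 3 genes the si-hnRNP K arrays and the untreated scramble arrays were near the median. The DOX changes of BMF and PLXNB1 in si-hnRNP K arrays (0.07 and 0.01, neither called) turned negative with cyclic loess.

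The genes with a higher interaction were mostly high in untreated arrays and low with DOX. CPOX, an enzyme of heme synthesis, measured 5.67, 5.80 and 5.75 in si-hnRNP K arrays with DOX and 6.73, 6.72 and 6.89 without, against 5.83, 5.94 and 6.10 in scramble arrays with DOX and 8.40, 8.35 and 8.43 without. Both DOX groups were near the median, and the label difference was -0.22 with DOX and -1.61 without. CPOX fell under both labels, with DOX changes of -1.04 and -2.44 (interaction 1.40 ± 0.15, limma adjusted p = 1.56e-06).

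ACSL4, which activates arachidonic acid for lipid synthesis, measured 6.67, 6.17 and 6.41 in si-hnRNP K arrays with DOX and 7.82, 7.71 and 7.93 without, against 6.35, 6.52 and 6.45 in scramble arrays with DOX and 9.49, 9.13 and 9.13 without. The DOX groups overlapped near the median, and untreated scramble arrays were highest. The interaction was 1.40 ± 0.18 (adjusted p = 4.75e-05), but the other ACSL4 probes gave -0.10, -0.03 and -0.06. MSMO1, a sterol oxidase of cholesterol synthesis, measured 7.53, 7.64 and 7.60 in si-hnRNP K arrays with DOX and 9.60, 9.47 and 9.51 without, against 7.29, 7.14 and 7.19 in scramble arrays with DOX and 10.56, 10.29 and 10.39 without. No group overlapped another. Its brightest probe fell, with DOX changes of -1.93 and -3.21 (interaction 1.27 ± 0.15, adjusted p = 8.95e-06). The second probe instead changed by 1.11 and 1.13 (interaction -0.02) and the third gave 0.62 (adjusted p over all probes = 0.0205). IDI1, an isomerase of the same pathway, averaged 7.29 and 9.89 against 6.68 and 10.13 (0.85, adjusted p = 0.00127), near the median in scramble arrays with DOX. Of 18 tested cholesterol synthesis genes these 2 were higher and 0 lower (2.05% and 1.12% over all genes tested), with a median of 0.01.

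MEX3C, an RNA-binding ubiquitin ligase, measured 5.84, 5.96 and 6.10 in si-hnRNP K arrays with DOX and 6.85, 6.94 and 7.11 without, against 5.91, 5.80 and 5.87 in scramble arrays with DOX and 8.04, 7.94 and 7.92 without. The DOX groups overlapped near the median, and the interaction was 1.11 ± 0.15 (limma adjusted p = 6.01e-05). FKBP3, a nuclear prolyl isomerase, averaged 6.74 and 9.60 in si-hnRNP K arrays with and without DOX, against 6.10 and 10.04 in scramble arrays (1.08, adjusted p = 0.000169), and its second probe gave 0.35 with no call. LIMS1, the focal adhesion adaptor PINCH1, averaged 7.39 and 9.39 against 6.97 and 10.02 (1.05, adjusted p = 0.000998), and its second probe gave -0.03. TM2D1, a membrane protein gene, averaged 8.50 and 10.33 against 7.83 and 10.69 (1.03, adjusted p = 0.00598), and its second probe gave 0.12 with no call. SMARCA2, an ATPase of the SWI/SNF remodelling complex, averaged 7.45 and 9.17 against 7.16 and 9.87 (0.99, adjusted p = 0.00121), and its dim second probe gave 0.15 with no call. SYNJ1, a phosphoinositide phosphatase, averaged 6.27 and 7.36 against 6.29 and 8.36 (0.98, adjusted p = 0.00256), and its dim second probe gave -0.01. YWHAG, a 14-3-3 adaptor, averaged 8.02 and 10.12 against 7.09 and 10.15 (0.96, adjusted p = 0.00787), and its second probe gave 0.23 with no call. FKBP3 in scramble arrays with DOX and SYNJ1 in both DOX groups were near the median. DOX changes on the second LIMS1 probe were 0.55 and 0.58, where the brightest gave -2.00 and -3.05. For TM2D1 they were 0.17 and 0.05 in place of -1.83 and -2.86, and for FKBP3 -0.12 and -0.47 in place of -2.86 and -3.95. The second YWHAG probe did fall, by -2.58 and -2.80, as did the brightest (-2.10 and -3.06).

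Of 30 tested mitotic genes, 17 fell with DOX in si-hnRNP K arrays and 20 in scramble arrays, against 13.2% and 14.9% of all genes tested. Of the 30, 5 had a higher interaction and 0 a lower one (2.05% and 1.12% over all genes tested). The list median of the interaction was 0.27 against -0.02 over all genes. The higher count ranged between 2 and 7 when 1 array was left out, and was 2 or 3 in 10 of the 12 fits. KPNA2 measured 7.44, 7.33 and 7.61 in si-hnRNP K arrays with DOX and 10.71, 10.34 and 10.36 without, against 6.87, 6.85 and 6.94 in scramble arrays with DOX and 10.92, 11.03 and 10.99 without. No group overlapped another. KPNA2, which is not a member of that list, fell, with DOX changes of -3.01 and -4.09 (interaction 1.08 ± 0.19, limma adjusted p = 0.00179), and its second probe gave 0.66 (adjusted p over all probes = 0.0158). CDK1 measured 9.23, 9.40 and 9.46 in si-hnRNP K arrays with DOX and 10.67, 10.77 and 10.75 without, against 8.67, 8.64 and 8.91 in scramble arrays with DOX and 11.12, 11.01 and 11.07 without. The si-hnRNP K arrays were higher than scramble with DOX (0.63) and lower without (-0.34). Its interaction was 0.96 ± 0.18 (adjusted p = 0.0028), and the second CDK1 probe gave 0.43 with no call.

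BUB1, a spindle checkpoint kinase, averaged 7.32 and 8.98 in si-hnRNP K arrays with and without DOX, against 6.69 and 9.25 in scramble arrays (0.90, limma adjusted p = 0.00413). CCNB1, which encodes the CDK1 partner cyclin B1, averaged 6.80 and 9.62 against 6.48 and 9.95 (0.65, adjusted p = 0.0324). BIRC5, which encodes survivin, averaged 10.33 and 10.44 against 9.40 and 10.02 (0.51, adjusted p = 0.0465), and its second probe gave 0.26 with no call. BUB1 and CCNB1 were near the median in scramble arrays with DOX. The calls of CCNB1 and BIRC5 were lost in 8 and 10 of the 12 fits that each left out 1 array. CENPW, a centromere protein gene outside the list, averaged 7.11 and 10.03 against 6.44 and 10.33 (0.97, adjusted p = 0.00179), near the median in scramble arrays with DOX. Of 28 tested DNA replication and E2F target genes 0 were called, against 3.17% over all genes tested, with a median of -0.06. PCNA, the sliding clamp of replication, averaged 8.71 and 11.35 against 8.48 and 11.69 (0.58, adjusted p = 0.065), and was called with cyclic loess (0.62), while its second probe gave 0.11. DOX changes on that second probe were 0.47 and 0.36, where the brightest gave -2.63 and -3.21.

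**Figure D3:**
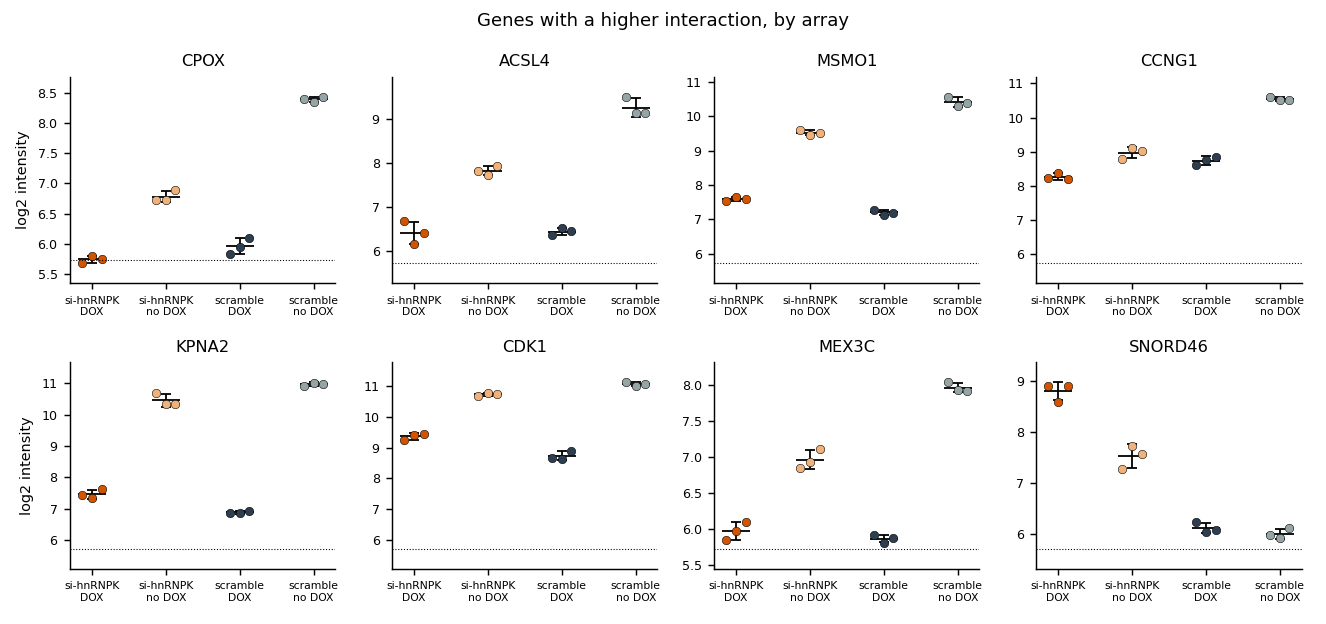
Log2 intensity of 8 genes with a higher interaction in each array (points), with the group mean and SD (bars, n = 3). The dotted line is the median of all probes, 5.72. In 7 of the 8 panels untreated scramble arrays are highest, and SNORD46 is highest in si-hnRNP K arrays with DOX.

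Genes of RNA processing and chromatin were among the higher calls. Over all genes tested, 2.05% were called higher and 1.12% lower. Of 23 tested hnRNP genes 4 were higher and 0 lower, yet the list median was -0.03. The count was 0 without untreated scramble array 1, scramble DOX array 2 or si-hnRNP K DOX array 3, and 1 without si-hnRNP K DOX array 2. HNRNPA2B1, a core hnRNP, averaged 10.91 and 13.10 in si-hnRNP K arrays with and without DOX, against 10.50 and 13.30 in scramble arrays (0.60, limma adjusted p = 0.0154). Its other 2 probes gave -0.0026 and -0.41 with no call, and the call on the brightest was lost without the same 3 arrays. TRA2B, a splicing activator related to SR proteins, averaged 9.04 and 10.79 against 8.58 and 10.95 (0.62, adjusted p = 0.0123), and 2 of 15 SR factors were higher and 0 lower (1 higher in 4 of the 12 fits that left out 1 array). Among 16 histone genes 4 were higher and 0 lower (median 0.07), and the count was 1 without scramble DOX array 1 and 2 in 6 other fits that left out 1 array. H2BC5, a histone H2B gene, averaged 9.99 and 10.25 against 8.10 and 8.93 (0.57, adjusted p = 0.00788), and its second probe gave 0.13 with no call. H1-2, a linker histone, averaged 10.19 and 11.19 against 9.18 and 10.82 (0.64, adjusted p = 0.0218), a call lost in 6 of 12 fits that left out 1 array. Heat shock chaperones had 2 of 14 higher and 0 lower, a count that was 0 without untreated scramble array 1 or untreated si-hnRNP K array 1 or 2. HSPA1A, an inducible HSP70, averaged 6.45 and 10.42 against 6.05 and 10.68 (0.67, adjusted p = 0.0299, lost in 6 of 12 such fits), near the median in both DOX groups.

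Several lists, also chosen with earlier results of these data known, had 0 members called in either direction. These were the unfolded protein response (17 tested), ribosome biogenesis (26), metallothioneins (6), NRF2 targets (14), glycolysis and hypoxia (22), secreted liver proteins (7) and liver transcription factors and metabolism (8). They hold 100 tested genes in all, against a share of 3.17% called over all genes, so a count of 0 in lists of this size sets none of them apart. Oxidative phosphorylation had 1 of 23 higher, against 2.05% over all genes tested, and that count was 0 in 7 of 12 fits that left out 1 array. The gene was UQCRC2 of complex III, at 7.22 and 9.48 against 6.70 and 9.62 (0.67, limma adjusted p = 0.0257), near the median in scramble arrays with DOX. With cyclic loess, 2 ribosome biogenesis genes and 1 NRF2 target were called as higher. The SE of an interaction had a median of 0.15 log2 units over genes, which limits the differences that could be called.

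**Figure D4:**
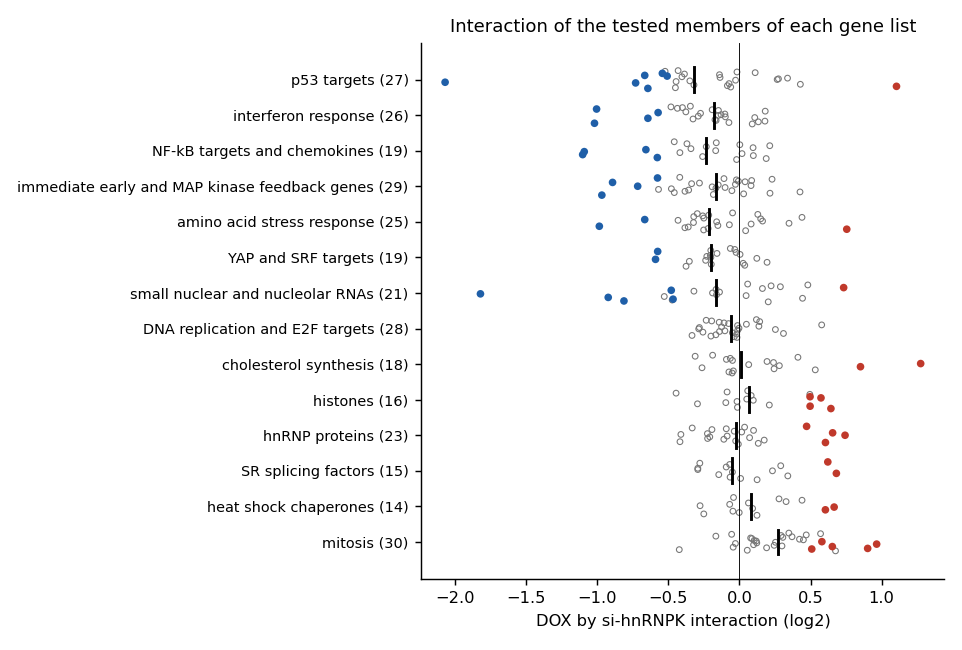
Interaction (log2) of the tested members of 14 gene lists, with filled red or blue points for called members, open points for the others and a black line at the list's median. The numbers beside the names are the members tested, the mitotic list has the highest median (0.27) and the p53 targets the lowest (-0.32).

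The arrays labelled si-PSTAR show where these genes stood in the rest of the study. For the 256 genes with a higher interaction, the median level was 7.71 and 8.99 in si-hnRNP K arrays with and without DOX, 7.28 and 9.45 in scramble arrays, and 7.50 and 7.37 in si-PSTAR arrays. Their median DOX change was 0.18 in si-PSTAR arrays, and their level in untreated si-PSTAR arrays was thus close to that in the DOX arrays of all 3 labels. For the 140 genes with a lower interaction the DOX change in si-PSTAR arrays had a median of 0.06. Set directly against DOX in si-PSTAR arrays, DOX in si-hnRNP K arrays differed for 5572 genes (44.6%), 4038 higher (32.3%) and 1534 lower (12.3%). With cyclic loess the split turned around, with 1270 higher and 1976 lower, or 39.1% higher in place of 72.5%. This contrast shares the si-hnRNP K arrays with the interaction, so its values are given side by side only. Both si-PSTAR groups lay in the set of 12 arrays, while the si-hnRNP K groups with and without DOX lay in different sets. The contrast, its counts and its p-values therefore cannot tell a difference in DOX response from the division of the arrays. GDF15 averaged 9.56 and 9.05 in si-PSTAR arrays with and without DOX and differed by -0.24 (limma adjusted p = 0.21). IL6 averaged 9.70 and 6.70 there and differed by -0.62 (adjusted p = 0.000943). CXCL8 averaged 9.29 and 6.45 and differed by -2.35 (adjusted p = 5.87e-09). RNU5A-1 averaged 5.65 and 5.54 and differed by -2.29 (adjusted p = 1.49e-12).

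**Figure D5:**
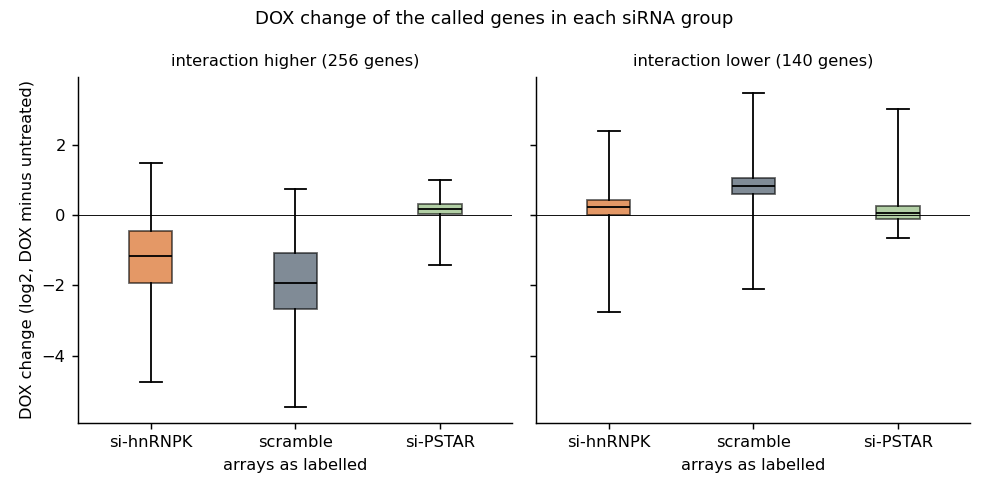
DOX change (log2, DOX minus untreated) of the 256 genes with a higher interaction (left) and the 140 with a lower one (right) in si-hnRNP K, scramble and si-PSTAR arrays. Boxes span the quartiles with the median as a line, and whiskers reach the lowest and highest gene. The medians on the left are -1.17, -1.93 and 0.18, and on the right 0.23, 0.83 and 0.06.

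Other probes of the same genes often gave a different value. Among the 256 higher genes 91 had a second probe, of which 73 reached the median of all probes. Of those 73, 48 had the same sign, 8 were called in the same direction and 0 in the opposite one, and their median was 0.12 against 0.69 on the brightest probe. Among the 140 lower genes the second probe reached the median in 41 of 52. There 34 had the same sign, 9 were called in the same direction and 1 (ID2, picked out after its values were seen) in the opposite one, with medians of -0.26 and -0.63. Across 1169 genes with 2 bright probes, those of at least 7.5 log2 units, the interaction on both correlated at 0.288. The DOX changes on both probes correlated at 0.229 in si-hnRNP K arrays and at 0.230 in scramble arrays. Of the 396 called genes, 162 had at least 1 of the 4 group means near the median, 99 higher and 63 lower, against 5385 of the 12483 tested. For such a gene part of the signal may be background, and the size of its interaction is less certain.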

How the data were processed

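Single-channel Illumina bead arrays were read for 18 samples in 6 groups of 3. RNA was amplified with an Illumina kit before hybridisation, per the labels' protocols. The authors deposited log2 intensities for 43961 probes. The values themselves show quantile normalization, since columns differed by under 0.01 at 99.9955% of ranks. The software and any background correction: not given in the sources used here. The labels give more than 1 exposure time, and the 16 hours of the design text were used.

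Gene symbols came from the platform annotation, updated against RefSeq (GRCh38.p14): 29511 had 1 symbol, 0 several and 14450 none here, and 29474 matched by identifier. Each of 19782 genes took the probe with the highest mean over 18 arrays, and 7299 whose mean fell short of the all-probe median were not tested. limma 3.58.1 in R 4.3.3 was fitted with 6 group means to all arrays, with 12 residual and 13.5 prior degrees of freedom, two-sided, Benjamini-Hochberg adjusted at 0.05. The smallest p of an exact permutation test of 3 against 3 arrays is 0.1. The fit was tested on simulated data.

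Named were HNRNPK, CDKN1A, MDM2 and MYC, the 15 highest and 15 lowest called interactions, and genes drawn from the 4 of smallest interaction p in each list described. Members and lists were chosen with earlier results of these data known. Drawn with matplotlib 3.10.9, the figures show the deposited scale. Alternatives covered scaling (cyclic loess or percentile centring), filters, the choice of probe, the arrays fitted, array weights, the replicate number as block, the variance prior and the removal of each array in turn. Counts per gene list under these settings were added after seeing the data.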

Additional observations from a re-analysis of the deposited data

Results flagged for a closer look

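The DOX change differed between the labels, by the test of the interaction itself, for 256 genes with a higher and 140 genes with a lower value. For 6 of them the DOX changes under the labels had opposite signs, with both changes called, and with cyclic loess this held for 13 of 431. ARF3 averaged 9.15 and 8.86 log2 units in si-hnRNP K arrays with and without DOX, against 8.90 and 9.18 in scramble arrays (interaction 0.57, limma adjusted p = 0.0478). PCOLCE2 averaged 8.59 and 8.24 against 8.63 and 8.87 (0.59, adjusted p = 0.0188). NPIPB3 averaged 10.13 and 10.53 against 10.67 and 10.20 (-0.87, adjusted p = 0.00241). RNVU1-7, a variant U1 RNA gene with near-identical copies, averaged 11.6 and 11.8 against 8.02 and 7.75 (-0.48, adjusted p = 0.0299). SLCO4A1 averaged 8.79 and 9.02 against 9.35 and 8.99 (-0.59, adjusted p = 0.0151). STOM averaged 11.5 and 11.8 against 12.5 and 12.3 (-0.54, adjusted p = 0.0174). Their DOX changes were at most 0.47 log2 units in size, and these signs are on the deposited scale, on which the median of all genes rose with DOX.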

How the results depend on the processing

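The 84 genes followed, 64 of them called, kept their direction under cyclic loess, centring, other filters, the fit of the compared arrays, the trended prior and array weights. The genes followed include members of lists not described above. Of 9 tested genes of the epithelial to mesenchymal transition, 1 was higher and 2 lower. Of 14 tested long noncoding RNAs, 0 were higher and 2, SNHG1 and SNHG12, were lower. Shares over all genes tested were 2.05% higher and 1.12% lower. Of the 64 calls, 62 held under cyclic loess (CCN1 and SNHG12 did not), and 639 of 768 held over the fits that each left out 1 array. Other probes changed more. On the second brightest probe the interaction turned to 0.26 for HNRNPK, 0.96 for MYC, -0.10 for ACSL4, -0.0218 for MSMO1, -0.0315 for LIMS1, -0.0547 for ATF4, -0.17 for HSPD1 and -0.0026 for HNRNPA2B1. For MYC it was 0.46 on the mean of all probes and -0.10 to 0.0202 when 1 array was left out (above 0 without scramble DOX array 3). The cause was not tested.

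The counts of 256 higher and 140 lower genes came to 126 and 51 on second probes (3314 genes tested, fewer than in the full set), 405 and 256 with only the compared arrays, 492 and 306 with array weights, and 10 and 8 past 1 log2 unit. Leaving out 1 array gave 128 to 305 higher and 77 to 136 lower genes. The higher count moved most without untreated si-hnRNP K array 1 (128), untreated scramble array 1 (142), si-hnRNP K DOX array 3 (143), untreated scramble array 2 or scramble DOX array 1 (150 each), scramble DOX array 2 (160), si-hnRNP K DOX array 2 (161) or untreated si-hnRNP K array 2 (165). The lower count moved most without array 1 of either untreated group (77 each), untreated scramble array 2 (81) or untreated si-hnRNP K array 3 (90). DOX calls in si-hnRNP K arrays numbered 4594 with cyclic loess, 1819 on second probes and 654 past 1 log2 unit (6520 to 6922 with 1 array left out). In scramble arrays they numbered 2147 on second probes and 930 past 1 log2 unit (7444 to 7809). Against si-PSTAR they numbered 3246, 1675 and 775 (4878 to 5631). At an unadjusted p under 0.05 the interaction gave 1958 genes.

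With the replicate number as a block, 273 genes were higher and 133 lower, and all 64 called genes followed kept their calls. Same-numbered arrays of different groups had residual correlations of -0.186 to 0.124 and 3 of 12 arrays correlated best with their own number, so the numbers were not taken as pairs.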
